A study of Homo sapiens with 12 samples.

Results

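The interferon-stimulated genes described here are 47 genes that interferons switch on. They are antiviral effectors, the interferon regulatory factors IRF1, IRF7 and IRF9, and genes grouped under antigen presentation by MHC class I. They were chosen by symbol, with earlier results of these data known, so shares set beside those of all genes describe this list. All 47 had a row among the 26364 rows of the count table. Of these, 44 had enough reads to enter the test, which covered 14184 genes. The other 3, HLA-E, TAP1 and PSMB8-AS1, all lie in the MHC region of chromosome 6 and are taken up with that group.

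The cells were MDA-MB-231, an established line of human breast cancer that lacks estrogen and progesterone receptors. Wells of this cell line received no drug, 1 µM dexamethasone (DEX), 8 µM SH4-54, or both compounds, and were lysed after 24 hours. Each of the 4 groups had 3 wells of this 1 line. The tests therefore rest on differences between wells, which may be technical. Dexamethasone is a synthetic glucocorticoid, and SH4-54 is a small molecule made to bind the SH2 domain of STAT3 that also binds STAT5. No group received interferon, and no vehicle is named for the untreated wells.

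Interferons bind receptors whose JAK kinases phosphorylate STAT proteins. STAT2 and IRF9 are subunits of the factor ISGF3, which binds a promoter element called ISRE, while interferon gamma acts mainly through another element called GAS. Cancer cell lines often keep a basal level of this program without added interferon, and its products bind viral RNA, cut or hide it, block virus entry, or attach the ubiquitin-like protein ISG15 to other proteins.

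The promoters of 6 members are shown because these genes carry the main contrasts below: ISG15 was the member lower with SH4-54 alone, IFIT1, IFIT3, HERC5 and DDX60 were called lower with both compounds and with neither alone, and IFI44L had the largest rise with DEX. The sequences are RefSeq's, build GRCh38.p14, while the counts were made on hg19 (GRCh37). Each line gives the 250 bases before the annotated start of the gene, 5′ to 3′ on the gene's strand, with matches on either strand to the ISRE core, GAAA on each side of any 2 bases, in capitals. They lie at chr1:1013247-1013496 on the plus strand (ISG15), chr4:88456869-88457118 on the plus strand (HERC5), chr10:89392373-89392622 on the plus strand (IFIT1), chr10:89327747-89327996 on the plus strand (IFIT3), chr4:168318753-168319002 on the minus strand (DDX60) and chr1:78620198-78620447 on the plus strand (IFI44L).
ISG15: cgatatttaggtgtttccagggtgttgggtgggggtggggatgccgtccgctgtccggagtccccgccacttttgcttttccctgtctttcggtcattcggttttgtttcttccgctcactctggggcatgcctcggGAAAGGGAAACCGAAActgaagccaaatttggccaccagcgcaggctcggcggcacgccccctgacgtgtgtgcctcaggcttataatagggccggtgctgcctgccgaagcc
HERC5: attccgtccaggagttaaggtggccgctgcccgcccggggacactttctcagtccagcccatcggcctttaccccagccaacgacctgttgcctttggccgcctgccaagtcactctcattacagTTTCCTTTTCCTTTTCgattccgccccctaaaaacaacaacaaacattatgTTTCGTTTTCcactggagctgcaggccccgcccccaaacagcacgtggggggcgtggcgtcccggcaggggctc
IFIT1: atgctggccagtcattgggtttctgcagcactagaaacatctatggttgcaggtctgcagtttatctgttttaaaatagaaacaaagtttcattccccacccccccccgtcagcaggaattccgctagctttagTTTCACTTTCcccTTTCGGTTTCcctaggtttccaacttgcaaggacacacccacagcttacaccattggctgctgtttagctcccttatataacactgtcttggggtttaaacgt
IFIT3: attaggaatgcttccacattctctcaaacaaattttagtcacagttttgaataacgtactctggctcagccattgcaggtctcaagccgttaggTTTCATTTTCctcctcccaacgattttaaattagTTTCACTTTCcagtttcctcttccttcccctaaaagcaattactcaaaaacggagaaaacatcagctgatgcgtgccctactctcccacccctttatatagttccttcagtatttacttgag
DDX60: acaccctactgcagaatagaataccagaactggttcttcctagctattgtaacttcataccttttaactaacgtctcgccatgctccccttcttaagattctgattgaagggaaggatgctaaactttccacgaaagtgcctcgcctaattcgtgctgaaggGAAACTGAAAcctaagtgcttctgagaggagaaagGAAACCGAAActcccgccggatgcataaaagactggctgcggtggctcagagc
IFI44L: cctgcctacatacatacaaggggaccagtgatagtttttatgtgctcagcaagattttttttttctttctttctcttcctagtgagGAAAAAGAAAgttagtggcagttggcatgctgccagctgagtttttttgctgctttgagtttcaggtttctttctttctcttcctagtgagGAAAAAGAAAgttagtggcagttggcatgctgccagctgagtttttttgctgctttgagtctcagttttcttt
In ISG15 the pair of matches overlapped, and in HERC5 a pair overlapped with a further match nearer the start. In IFI44L a run of 85 bases occurred more than once, with its copies 91 bases apart, and each copy held a match.

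A RefSeq promoter (250 bases before to 50 after the start) was matched for 38 of the 47 members. USP18, IFIT2, IFITM2, OAS2, OASL, MX2, DHX58, IRF7 and HLA-E had no entry there. The ISRE core, searched on both strands, was found in 23 of 38 member promoters (60.5%), against 3.65% of 27305 promoters of all genes. A longer form, the core with G before it and C after it, was found in 12 members (31.6%) and in 0.333% of all promoters. The GAS letters TTCNNNGAA, which read the same on both strands, were found in 9 members (23.7%) and in 7.88% of all promoters. The full palindromic glucocorticoid response element, AGAACA and TGTTCT with any 3 bases between, was in 0 of 38 member promoters and in 1 of 27305. These matches describe letters in a short window. The members were chosen as interferon-induced genes, so a high share of ISRE letters is part of what they are.

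**Figure D1:**
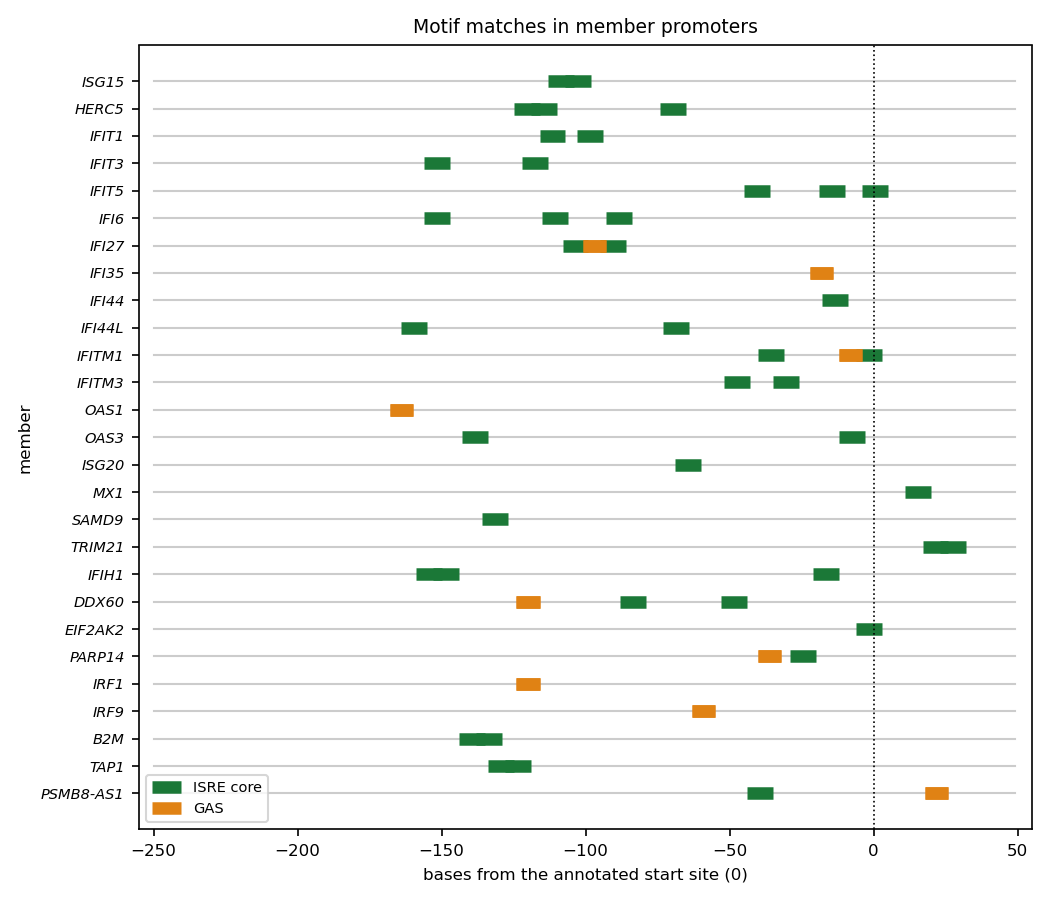
Matches to the ISRE core (green) and GAS (orange) in member promoters with at least 1 match, drawn in bases from the annotated start (0), 1 row per member. Most ISRE matches lie before the start, as in IFIT1, IFIT3, HERC5 and ISG15, and a few members such as MX1 and TRIM21 have theirs just after it.

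Libraries held 25577213 to 35758236 counted reads. Levels are given as CPM, a gene's count relative to the library's TMM-scaled total, and differences as log2 fold changes ± standard error from edgeR's quasi-likelihood test with Benjamini-Hochberg adjustment over all genes tested, called at an adjusted p below 0.05. The glucocorticoid target FKBP5 was at 52.4 to 55.6 CPM without drug, 309.7 to 345 with DEX, 52.3 to 56.8 with SH4-54 and 181 to 271 with both, and TSC22D3, another such target, was at 6.30 to 7.29, 84.0 to 87.8, 5.95 to 8.07 and 61.3 to 87.5. Vimentin (VIM) and CD44, which this cell line expresses strongly, were at 805 to 1365 and 274 to 525 CPM, the estrogen receptor ESR1 reached at most 0.233 CPM, and the leukocyte genes PTPRC and CD3E at most 0.733 and 0.0387 CPM. Combination replicate 3 stood apart from the other combination wells: it had the most reads, the highest FKBP5 (271 CPM against 202 and 181), and the highest summed level of all members (2685 CPM against 2376 and 2453). It was the highest combination well for 20 of the 22 members that were lower with both compounds than with DEX. Where calls change without it, the changed count or the members whose calls appear or are lost are given.

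Many interferon-stimulated genes were lower when SH4-54 was added to DEX than with DEX alone. Against DEX alone, 22 of 44 members fell and 1 rose with both compounds, where 13.5% of all genes fell and 13% rose. The members' median log2 fold change was -0.27 (all genes 0.0047), and 38 of 44 were below 0. Of the 22 members that fell, 20 had combination wells that did not overlap the DEX wells. Over all 44 members 27 did not overlap, where 39.9% of all genes did not. Leaving out combination replicate 3 raised the number that fell to 31 and moved the median to -0.36, while the share of all genes that fell rose to 18.2%. The 9 added members were IFI6, IFI16, IFITM2, IRF9, ISG20, XAF1, EIF2AK2, SAMD9 and SAMD9L. That well was the highest combination well for 20 of the 22 members that fell, so their deeper falls without it follow from that choice. Why the 9 members were added was not tested. Without combination replicate 1, MX1, IFIH1, DHX58 and PARP14 were no longer called lower (all genes 9.87%). Without combination replicate 2 this held for UBE2L6, MX1, MX2, DHX58 and PARP14 (all genes 7.99%). In all, 16 of the 22 calls held in each of the 12 fits that left out a single library.

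DEX alone moved members in both directions. Of 44 members 10 rose and 7 fell (all genes 21.9% and 23.2%), with a median of -0.011, the same as the all-gene median of -0.011. The rises were UBE2L6, IFI44, IFI44L, IFITM2, IFITM3, OASL, MX2, TRIM21, PARP9 and IRF1, and the falls were USP18, IFI35, OAS3, ISG20, SAMD9, SAMD9L and DDX58. That of TRIM21 (0.19 ± 0.07, adjusted p = 0.0329) was lost without no-drug replicate 2 or 3 or DEX replicate 2 or 3 (adjusted p up to 0.124). Both shares of called members are near those of all genes or below them. With SH4-54 alone, only ISG15 fell and 0 members rose by edgeR (all genes 0.331% and 0.268%). At an unadjusted p under 0.05 there were 13 members in either direction (29.5%, all genes 13.1%), DESeq2 called 4 lower and 0 higher (all genes 0.768% and 0.536%), and the median was -0.076 (all genes -0.0036), with 34 of 44 members below 0. The median was -0.043 without no-drug replicate 1 and -0.05 without SH4-54 replicate 1. The number called lower was 0 without no-drug replicate 2, 2 without combination replicate 1 and 4 without combination replicate 3, where IFIT1, IFIT3 and DDX58 were added. The share of all genes called lower was 0.0557%, 0.306% and 0.627% in these fits.

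Compared with no drug, both compounds together lowered 23 members and raised 1, IFI44L, where 21.6% and 21.1% of all genes were called. The median was -0.21 (all genes 0.0043). The number called higher was 3 without no-drug replicate 1 or combination replicate 2, and 2 without SH4-54 replicate 1 or 3. The share of all genes called higher was 17.9% and 18.9% in the former fits, and 21.4% and 20.5% in the latter. Without combination replicate 3, DHX58, PARP9 and B2M were also called lower, while USP18 and CMPK2 no longer were (all genes 21.9%). Compared with SH4-54 alone, 15 fell and 2, IFI44L and IFITM3, rose (all genes 20.3% and 20.1%), with a median of -0.12 (all genes 0.0047). IFITM3's rise there (0.15 ± 0.05, adjusted p = 0.0304) was lost without SH4-54 replicate 1 or 2 or combination replicate 3 (adjusted p up to 0.133). Leaving out combination replicate 3 moved the median against SH4-54 to -0.20 and added XAF1, EIF2AK2 and PARP9 to the members called lower. USP18 was no longer called lower there (all genes 21.2%). These 5 comparisons share groups, so their counts are not independent of each other.

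**Figure D2:**
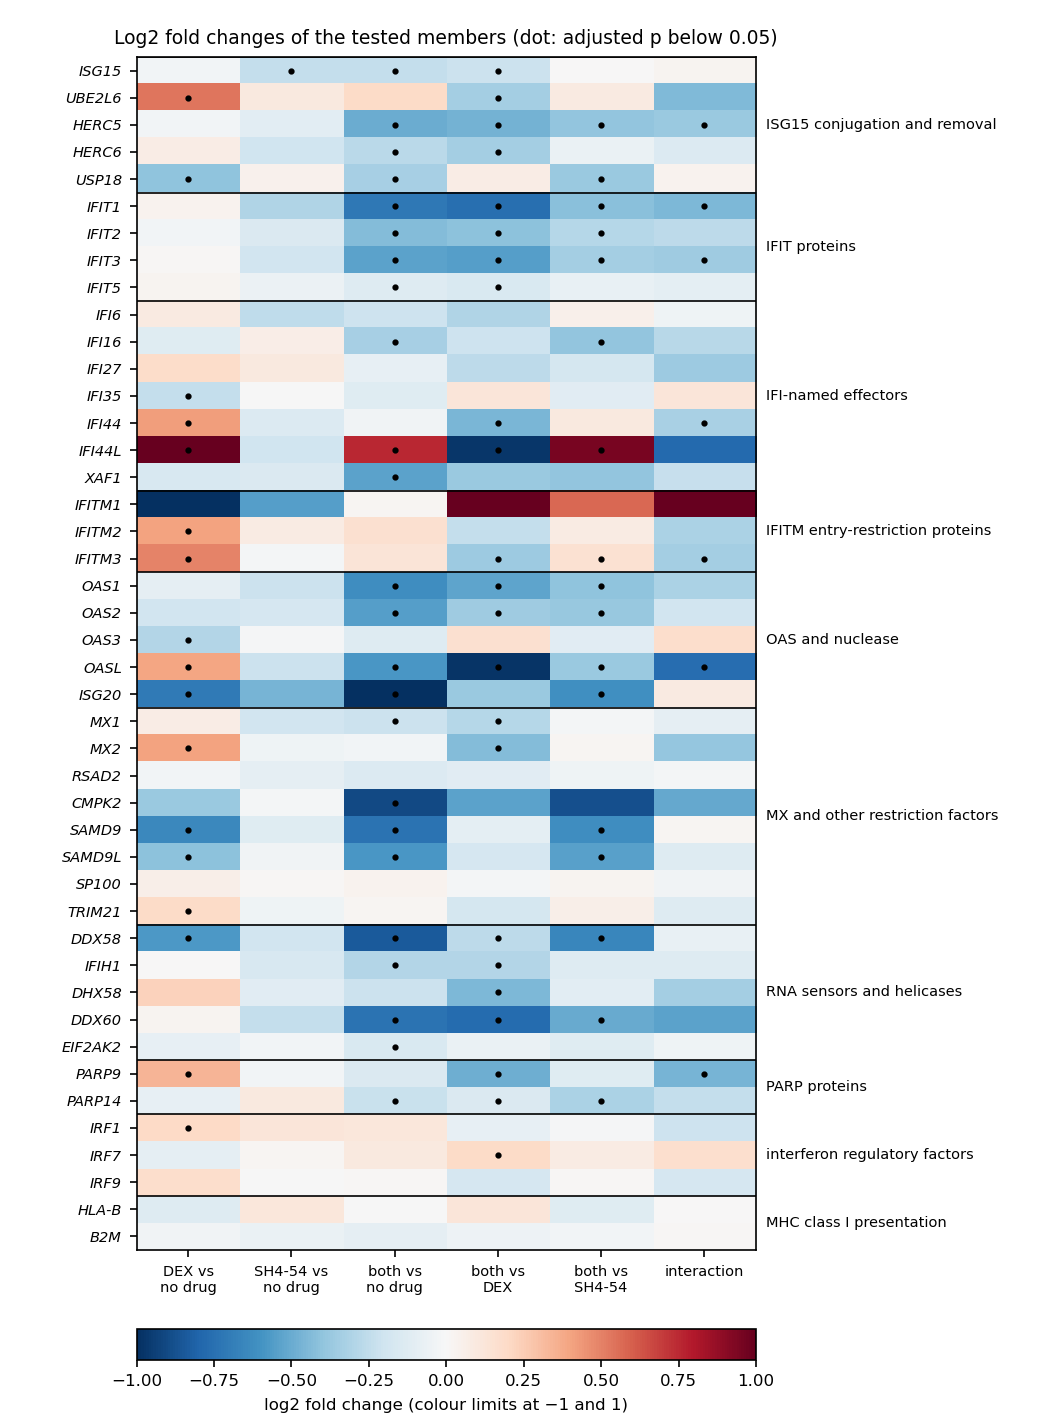
Log2 fold changes of the 44 tested members (rows, grouped by role) in the 5 comparisons of groups and the interaction (columns), with colours limited at -1 and 1 and a dot where the adjusted p was below 0.05. The column of both compounds against DEX holds 22 blue cells with a dot and 1 red one (IRF7), and the SH4-54 column holds a single dot (ISG15).

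The ISG15 system tags proteins during the interferon response. UBE2L6 is its conjugating enzyme, HERC5 its main ligase, HERC6 a related ligase, and USP18 removes ISG15 and restrains the type I interferon receptor. ISG15 itself was at 224, 219 and 219 CPM without drug, 219.9, 207 and 224 with DEX, 180.1, 194 and 187 with SH4-54, and 179, 195 and 188 with both. All 6 wells with SH4-54 were below all 6 without it, and DEX made no visible step. The difference with SH4-54 alone was -0.24 ± 0.04 (adjusted p = 0.0102), and with both compounds against DEX -0.21 ± 0.04 (adjusted p = 0.00148). The call with SH4-54 alone was lost without no-drug replicate 2 (adjusted p = 0.0518).

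HERC5 was not called with either compound alone and fell with both. It was at 106, 95.4 and 99.4 CPM without drug, 101, 98.4 and 95.3 with DEX, 88.8, 93.2 and 97.8 with SH4-54, and 67.2, 68.6 and 76.8 with both. The 3 combination wells lay below the other 9. The fall was -0.50 ± 0.05 against no drug (adjusted p = 3.01e-06), -0.47 ± 0.05 against DEX (adjusted p = 4.77e-05) and -0.39 ± 0.05 against SH4-54 (adjusted p = 3.67e-05). UBE2L6 went the other way with DEX, from 34.8, 31.0 and 29.7 CPM without drug to 44.6, 48.3 and 45.3, a rise of 0.53 ± 0.09 (adjusted p = 0.000275). With both compounds it was at 35.5, 30.9 and 42.4 CPM, a difference from DEX of -0.34 ± 0.09 (adjusted p = 0.0145), a call lost without DEX replicate 2 or combination replicate 2 (adjusted p up to 0.0673). USP18 was lower with DEX (-0.40 ± 0.12, adjusted p = 0.0137), and that call was lost without no-drug replicate 3 or DEX replicate 2 (adjusted p up to 0.0766). HERC6 was lower with both compounds than with DEX (-0.34 ± 0.08, adjusted p = 0.00507).

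The IFIT proteins bind viral RNA that lacks the marks of host messenger RNA. All 4 members fell with both compounds against DEX and against no drug (all genes 13.5% and 21.6%). With DEX 0 of 4 rose and 0 fell (all genes 21.9% and 23.2%), and 0 had an unadjusted p under 0.05 (all genes 51.4%). IFIT1 was at 328, 295 and 321 CPM without drug, 319.6, 317 and 329 with DEX, 239, 269 and 260.0 with SH4-54, and 171, 188 and 215 with both. The groups formed steps: the wells without SH4-54 were highest, those with SH4-54 alone lay between, and the 3 combination wells were below all others. With both compounds IFIT1 was -0.75 ± 0.07 against DEX (adjusted p = 6.23e-06), -0.72 ± 0.07 against no drug (adjusted p = 7.61e-07) and -0.42 ± 0.07 against SH4-54 (adjusted p = 0.00018). With SH4-54 alone its difference was -0.30 ± 0.07 and did not pass (adjusted p = 0.0728 by edgeR, 0.000724 by DESeq2).

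IFIT3, which stabilises IFIT1 in a complex, showed the same order of groups. It was at 312, 291 and 302 CPM without drug, 304, 311 and 301 with DEX, 258, 271 and 263 with SH4-54, and 196, 202 and 226 with both. No combination well overlapped another group. Its fall against DEX was -0.55 ± 0.05 (adjusted p = 2.92e-06). IFIT2 fell by 0.41 ± 0.07 on the log2 scale (adjusted p = 0.00108) and IFIT5 by 0.15 ± 0.03 (adjusted p = 0.00398) in the same comparison.

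**Figure D3:**
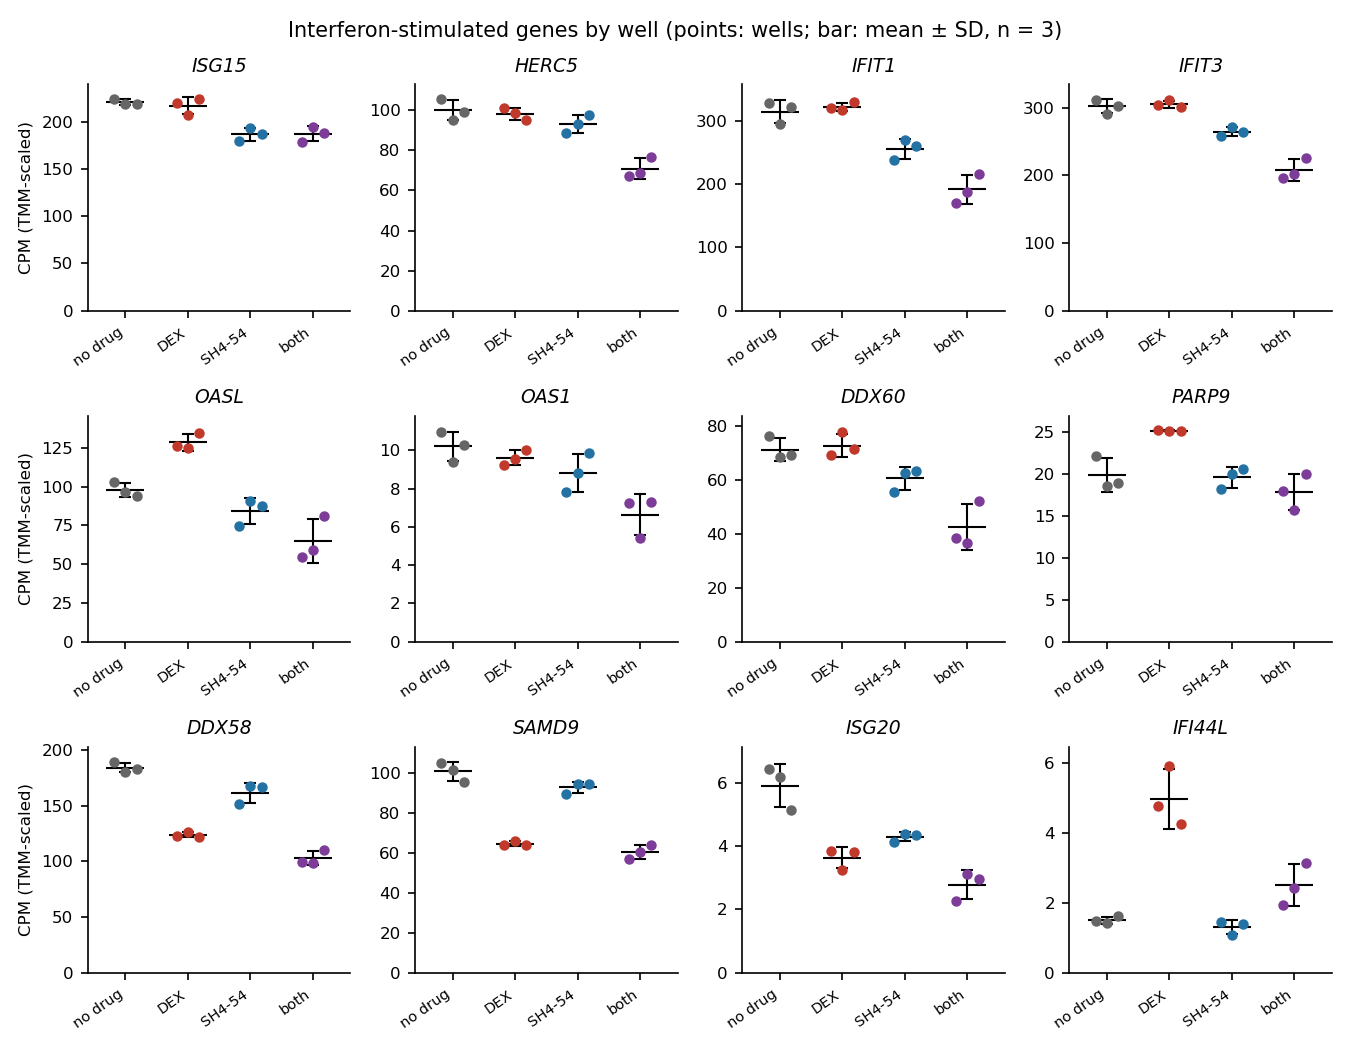
Levels of 12 members in CPM (linear axes from 0), with 1 point per well and bars for the mean ± SD of 3 wells in each of the 4 groups. IFIT1, IFIT3, HERC5 and DDX60 are lowest with both compounds, OASL and PARP9 are highest with DEX, DDX58 and SAMD9 are low in both groups with DEX, and IFI44L is high with DEX.

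The OAS enzymes sense double-stranded RNA and make the messenger that activates RNase L, OASL is a relative without that activity, and ISG20 is an exonuclease. With both compounds 4 of these 5 fell against no drug and 3 against DEX (all genes 21.6% and 13.5%). OASL was at 103, 96.4 and 94.0 CPM without drug, 126, 125 and 135 with DEX, 74.5, 90.8 and 87.4 with SH4-54, and 54.8, 58.9 and 81.0 with both. Its DEX wells were above all others, and its combination wells were below the untreated ones but overlapped the SH4-54 wells through replicate 3. OASL rose with DEX by 0.39 ± 0.11 (adjusted p = 0.00752), and with both compounds it was -0.98 ± 0.11 against DEX (adjusted p = 3.88e-05), the lowest value of any member in that comparison. Against SH4-54 alone its difference was -0.37 ± 0.11 (adjusted p = 0.0147), a call lost without SH4-54 replicate 2 or combination replicate 1 or 2 (adjusted p up to 0.0732).

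OAS1 was at 11.0, 9.41 and 10.3 CPM without drug, 9.25, 9.56 and 10.02 with DEX, 7.84, 8.82 and 9.84 with SH4-54, and 7.23, 5.40 and 7.29 with both. The combination wells were below every other well. OAS1 fell by 0.53 ± 0.11 on the log2 scale against DEX (adjusted p = 0.00379), and OAS2 by 0.36 ± 0.08 (adjusted p = 0.00495). OAS3 differed from these: it was lower with DEX (-0.29 ± 0.10, adjusted p = 0.0259) and had a difference of 0.16 ± 0.10 with both compounds against DEX that did not pass (adjusted p = 0.261). The DEX call of OAS3 was lost without no-drug replicate 1 or 3 or DEX replicate 2 or 3 (adjusted p up to 0.111).

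ISG20 was a member that DEX lowered. It was at 6.42, 6.17 and 5.13 CPM without drug, 3.83, 3.25 and 3.81 with DEX, 4.12, 4.39 and 4.36 with SH4-54, and 2.25, 3.12 and 2.97 with both. Every treated group was below the untreated wells, and the combination wells were lowest. The falls were -0.71 ± 0.13 with DEX (adjusted p = 0.000354) and -1.08 ± 0.13 with both against no drug (adjusted p = 9.48e-06). The SH4-54 difference of -0.46 ± 0.12 did not pass (adjusted p = 0.126), nor did that of both compounds against DEX, -0.37 ± 0.14 (adjusted p = 0.0602, or 0.0488 without combination replicate 3).

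The RNA sensors and helicases detect viral RNA inside the cell. DDX58 encodes RIG-I and IFIH1 encodes MDA5, DHX58 encodes the related LGP2, DDX60 is a helicase reported to assist RIG-I, and EIF2AK2 encodes the kinase PKR. With both compounds against DEX 4 of these 5 fell and 0 rose (all genes 13.5% and 13%). DDX60 was at 76.1, 68.6 and 69.1 CPM without drug, 69.1, 77.7 and 71.4 with DEX, 55.7, 62.7 and 63.2 with SH4-54, and 38.6, 36.6 and 52.3 with both. The combination wells were below all others, with replicate 3 closest to the SH4-54 wells. The difference was -0.77 ± 0.10 against DEX (adjusted p = 0.000145) and -0.50 ± 0.10 against SH4-54 (adjusted p = 0.00122).

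DDX58 followed DEX more than SH4-54. It was at 189, 181 and 183 CPM without drug, 123, 126 and 122 with DEX, 151, 167 and 166 with SH4-54, and 99.8, 98.7 and 111 with both, with no overlap between any of the 4 groups. It fell with DEX by 0.57 ± 0.05 on the log2 scale (adjusted p = 1.13e-07), with both against SH4-54 by 0.65 ± 0.05 (adjusted p = 5.15e-08) and with both against DEX by 0.27 ± 0.05 (adjusted p = 0.00113). IFIH1 was lower with both compounds than with DEX (-0.29 ± 0.08, adjusted p = 0.0172), and DHX58 likewise (-0.45 ± 0.13, adjusted p = 0.0176). These calls were less stable: that of IFIH1 was lost without DEX replicate 3 or combination replicate 1 (adjusted p up to 0.0661), and that of DHX58 without DEX replicate 2 or combination replicate 1 or 2 (adjusted p up to 0.0738). EIF2AK2 was called only against no drug (-0.15 ± 0.05, adjusted p = 0.0237), and that call was lost without no-drug replicate 2 or 3 or combination replicate 1 or 2 (adjusted p up to 0.0953). Without combination replicate 3 it was also called lower against DEX (adjusted p = 0.0321).

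MX1 and MX2 are dynamin-like proteins that trap virus particles, SAMD9 and SAMD9L restrict poxviruses, RSAD2 encodes viperin, CMPK2 is a nucleotide kinase beside it in the genome, TRIM21 is an intracellular antibody receptor, and SP100 is a nuclear body protein. SAMD9 was at 105, 101 and 95.5 CPM without drug, 63.8, 65.8 and 63.8 with DEX, 89.3, 94.3 and 94.2 with SH4-54, and 56.9, 60.1 and 63.6 with both. The 6 wells with DEX were below the 6 without it. SAMD9 fell with DEX by 0.64 ± 0.04 on the log2 scale (adjusted p = 2.13e-08) and SAMD9L by 0.41 ± 0.09 (adjusted p = 0.0023), while neither was called with both compounds against DEX (adjusted p = 0.126 and 0.228). Without combination replicate 3 both were called lower there (adjusted p = 0.0167 and 0.0313).

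MX2 was at 4.38, 4.04 and 4.32 CPM without drug, 5.30, 5.86 and 5.69 with DEX, 4.02, 4.54 and 3.78 with SH4-54, and 3.96, 3.77 and 4.71 with both. It rose with DEX (0.40 ± 0.11, adjusted p = 0.00724) and was lower with both than with DEX (-0.43 ± 0.11, adjusted p = 0.0103, or 0.0502 without combination replicate 2). MX1 was not called with DEX (0.07 ± 0.08, adjusted p = 0.509) and was lower with both against DEX (-0.28 ± 0.08, adjusted p = 0.0192), although combination replicate 3 at 21.9 CPM overlapped the DEX wells at 21.8 to 24.1. That call of MX1 was lost without DEX replicate 1 or 2 or combination replicate 1 or 2 (adjusted p up to 0.0795), and its call against no drug in 10 of 12 such fits (adjusted p up to 0.211). RSAD2 and SP100 passed in none of the comparisons, and CMPK2, at 0.290 to 1.01 CPM, passed against no drug only (-0.90 ± 0.33, adjusted p = 0.0411, not called by DESeq2 and lost in 6 of 12 fits with a library left out, adjusted p up to 0.137).

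The genes named IFI are less uniform in function: IFI16 senses DNA, IFI6 and IFI27 act at membranes and mitochondria, IFI35 is a signalling modulator, IFI44 and IFI44L are related cytoplasmic proteins, and XAF1 promotes cell death. IFI44L was at 1.47, 1.43 and 1.62 CPM without drug, 4.76, 5.93 and 4.26 with DEX, 1.44, 1.09 and 1.39 with SH4-54, and 1.94, 2.43 and 3.14 with both. Both groups with DEX lay above both groups without it, and the combination wells lay below the DEX wells. IFI44L rose with DEX by 1.73 ± 0.18 (adjusted p = 1.92e-06) and was -0.97 ± 0.17 with both against DEX (adjusted p = 0.00101). IFI44 moved alike at a smaller size, with 0.42 ± 0.06 for DEX (adjusted p = 4.02e-05) and -0.45 ± 0.06 for both against DEX (adjusted p = 0.000126). IFI16 was lower with both compounds than with SH4-54 (-0.40 ± 0.08, adjusted p = 0.000922). IFI35 was lower with DEX (-0.24 ± 0.07, adjusted p = 0.0121), a call lost without no-drug replicate 1 or 2 (adjusted p up to 0.0566), and XAF1 was lower with both against no drug (-0.54 ± 0.19, adjusted p = 0.0302), lost without no-drug replicate 1 or 3 or combination replicate 1 or 2 (adjusted p up to 0.117). IFI27 was not called in any comparison of groups, nor was IFI6, whose difference with both against DEX was -0.30 ± 0.11 (adjusted p = 0.0549, or 0.017 without combination replicate 3).

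The IFITM proteins block virus entry at membranes. IFITM3 was at 65.8, 61.2 and 57.2 CPM without drug, 85.5, 88.0 and 86.4 with DEX, 57.0, 59.4 and 65.1 with SH4-54, and 65.7, 66.7 and 69.4 with both. The DEX wells stood above all others. IFITM3 rose with DEX (0.50 ± 0.05, adjusted p = 1.98e-06) and was lower with both than with DEX (-0.36 ± 0.05, adjusted p = 0.000253). IFITM2 also rose with DEX (0.40 ± 0.09, adjusted p = 0.0017). The IFITM genes are close copies of each other, and the sources used here do not say how reads matching several genes were counted. The split between them is uncertain. IFITM1 varied more between wells than between groups: it was at 4.04, 0.994 and 0.914 CPM without drug and 0.971, 0.833 and 4.01 with both, and it passed in no comparison.

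PARP9 and PARP14 are ADP-ribosyltransferase family members induced by interferon. PARP9 was at 22.2, 18.6 and 18.9 CPM without drug, 25.3, 25.2 and 25.2 with DEX, 18.2, 20.01 and 20.6 with SH4-54, and 17.9, 15.8 and 20.1 with both. It rose with DEX (0.34 ± 0.08, adjusted p = 0.00356), and with both compounds it was back within the range of the wells without DEX or below it (-0.49 ± 0.08 against DEX, adjusted p = 0.000913). PARP14 was not called with DEX (-0.08 ± 0.05, adjusted p = 0.215) and fell with both compounds against SH4-54 (-0.32 ± 0.05, adjusted p = 0.000156). Its call against DEX (-0.14 ± 0.05, adjusted p = 0.0497) sat at the threshold and was lost in 11 of the 12 fits with a library left out, all except that without combination replicate 3 (adjusted p up to 0.215).

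The regulatory factors moved little. IRF1, a factor induced mainly through GAS, rose with DEX (0.20 ± 0.06, adjusted p = 0.00928), a call lost without no-drug replicate 3 or DEX replicate 3 (adjusted p up to 0.0541). IRF7, the amplifier of type I interferon, was at 15.7, 15.5 and 15.5 CPM with DEX and 17.9, 18.7 and 16.7 with both, the 1 member higher in that comparison (0.19 ± 0.06, adjusted p = 0.0358). The call of IRF7 was lost without any of the 3 DEX wells, without combination replicate 1 or 2 and by DESeq2 (adjusted p = 0.115). IRF9, the DNA-binding subunit of ISGF3, passed in no comparison, with -0.17 ± 0.09 for both against DEX (adjusted p = 0.215, or 0.0173 without combination replicate 3).

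MHC class I presentation could be read for only part of its members. PSMB8-AS1 is by its symbol an antisense RNA of PSMB8, and it stands in this group through the member list. B2M, the shared light chain, lies on chromosome 15 and was at 656, 637 and 642 CPM without drug and 585, 608 and 625 with both, a difference that did not pass (-0.09 ± 0.04, adjusted p = 0.0688, or 0.0287 without combination replicate 3). HLA-B, at 31.8 to 40.8 CPM over the 12 wells, passed in no comparison, but was called lower with DEX without no-drug replicate 3 (-0.17, adjusted p = 0.0257). HLA-E and PSMB8-AS1 were listed at 0 in all 12 libraries and TAP1 had 1 read in total. The table has few reads for this whole stretch of chromosome 6: of 141 protein-coding genes between GABBR1 and KIFC1, 109 (77.3%) had under 12 reads over the 12 libraries, against 181 of 849 (21.3%) elsewhere on the chromosome. Widely expressed genes there, such as GNL1, ABCF1, FLOT1, DDX39B and VARS, were also listed at 0. The zeros of HLA-E and PSMB8-AS1 are therefore not read as absence of expression, and the value of HLA-B, a gene with close copies in that region, is uncertain.

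The genes upstream of the members were counted from lists of ligands, receptors, transducers and inhibitors. Of 13 ligand symbols looked up, 10 had a row and 0 had enough reads to test. IFNB1, IFNG, IFNE, IFNL3, IFNA1, IFNA2 and IFNA5 had 0 reads, where the limit of 3 reads that a count of 0 allows corresponds to 0.0839 to 0.117 CPM, and IFNK, IFNL1 and IFNL2 had 15, 6 and 1 reads over all libraries. Of 9 receptors and kinases tested, 5 rose with DEX and 0 fell (all genes 21.9% and 23.2%). IFNGR1, the ligand-binding chain for interferon gamma, was at 53.4, 54.7 and 53.8 CPM without drug, 119, 122 and 121 with DEX, 51.7, 54.4 and 59.3 with SH4-54, and 96.9, 86.0 and 107 with both. Its DEX difference was 1.16 ± 0.06 (adjusted p = 1.93e-09), and with both against DEX it was -0.31 ± 0.06 (adjusted p = 0.00253).

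In that last comparison 4 of the 9 receptors and kinases fell and 0 rose (all genes 13.5% and 13%). JAK2, the kinase of the interferon gamma receptor, fell by 0.44 ± 0.10 on the log2 scale (adjusted p = 0.00686), and JAK1 by 0.14 ± 0.04 (adjusted p = 0.0224), the latter lost without DEX replicate 1 or 2 or combination replicate 1 or 2 (adjusted p up to 0.103). IL10RB, a receptor chain shared with interleukin 10, was lower at the threshold (adjusted p = 0.0494), a call lost in 10 of 12 fits with a library left out. STAT2 was at 59.2, 55.3 and 51.5 CPM without drug, 80.6, 83.7 and 84.5 with DEX, 54.5, 58.6 and 58.6 with SH4-54, and 65.2, 57.3 and 70.9 with both. It rose with DEX (0.58 ± 0.07, adjusted p = 4.2e-06) and was lower with both than with DEX (-0.36 ± 0.07, adjusted p = 0.00134). The DEX wells of IFIT1, HERC5 and DDX60 overlapped the untreated wells, unlike those of STAT2. Other members were called as STAT2 was, higher with DEX and lower with both against DEX. These were UBE2L6, IFI44, IFI44L, IFITM3, OASL, MX2 and PARP9. A link between STAT2 and the members was not tested.

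**Figure D4:**
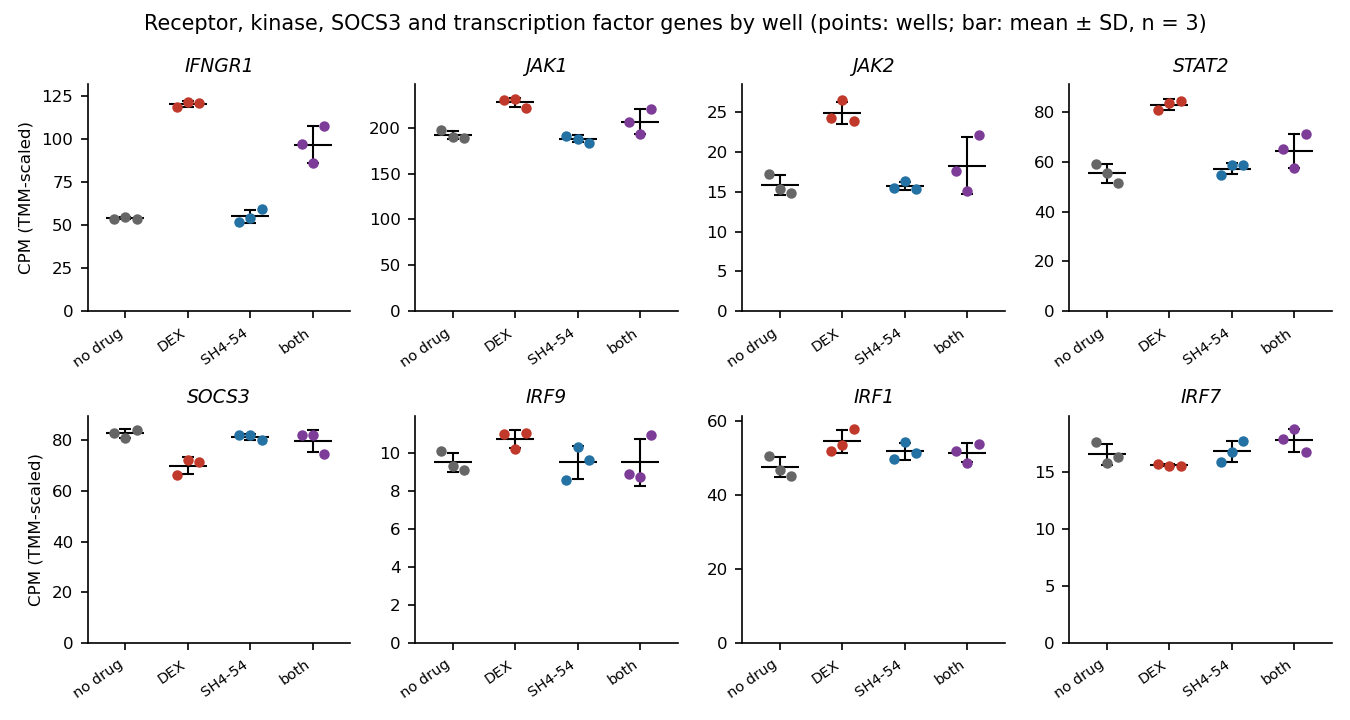
Levels of receptor, kinase, STAT2, SOCS3 and regulatory factor genes in CPM (linear axes from 0), with 1 point per well and bars for the mean ± SD of 3 wells in each of the 4 groups. IFNGR1, JAK2 and STAT2 are highest with DEX and lower with both compounds, and combination replicate 3 is the highest combination well for IFNGR1, JAK1, JAK2, STAT2 and IRF9.

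Of 5 feedback inhibitors 1 rose and 1 fell with DEX, and 2 rose and 1 fell with both against DEX (all genes 21.9% and 23.2%, then 13% and 13.5%). SOCS3, an inhibitor of JAK signalling, fell with DEX (-0.24 ± 0.04, adjusted p = 0.000345) and was higher with both than with DEX (0.19 ± 0.04, adjusted p = 0.00631). Of 11 tested genes for nucleic acid sensing and its adaptors, 4 fell with DEX and 0 rose (all genes 23.2% and 21.9%), among them TRAF3 (-0.34 ± 0.04, adjusted p = 6.16e-06), MB21D1, which encodes the DNA sensor cGAS (-0.36 ± 0.05, adjusted p = 4.07e-05), and TRIM25 (-0.23 ± 0.04, adjusted p = 7.91e-05). With both against DEX 4 rose and 0 fell (all genes 13% and 13.5%), including TRAF3 (0.25 ± 0.04, adjusted p = 0.00056) and MB21D1 (0.22 ± 0.05, adjusted p = 0.00631).

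A further list held 37 other interferon-induced genes, of which 35 were tested. With DEX 19 rose and 6 fell (all genes 21.9% and 23.2%), with a median of 0.21 (all genes -0.011). With both against DEX 2 rose and 13 fell (all genes 13% and 13.5%), with a median of -0.13 (all genes 0.0047). SP110, a nuclear body protein, rose with DEX by 1.57 ± 0.07 (adjusted p = 2.52e-10) and EPSTI1 by 2.02 ± 0.14 (adjusted p = 1.78e-08), while the GTPase GBP3 fell by 0.78 ± 0.05 on the log2 scale (adjusted p = 1.23e-08). The apolipoprotein L genes APOL1 (-0.74 ± 0.13, adjusted p = 0.00111), APOL2 (-0.58 ± 0.09, adjusted p = 0.00033) and APOL6 (-0.55 ± 0.09, adjusted p = 0.00052) were lower with both than with DEX.

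Whether SH4-54 acted differently with and without DEX was tested as an interaction, the SH4-54 difference in DEX-treated wells minus that in wells without DEX. Of 44 members 7 had a negative interaction and 0 a positive one (all genes 1.46% and 2.44%), with a median of -0.18 (all genes 0.0057), and 16 had an unadjusted p under 0.05 in either direction (36.4%, all genes 21.1%). OASL had -0.76 ± 0.15 (adjusted p = 0.0153), PARP9 -0.46 ± 0.12 (adjusted p = 0.0434), IFIT1 -0.45 ± 0.10 (adjusted p = 0.0196) and HERC5 -0.37 ± 0.08 (adjusted p = 0.017). IFIT3 had -0.36 ± 0.06 (adjusted p = 0.0101), IFITM3 -0.34 ± 0.07 (adjusted p = 0.0229) and IFI44 -0.32 ± 0.08 (adjusted p = 0.0478). The number moved with single libraries: it was 16 without combination replicate 3, 2 without no-drug replicate 2 or SH4-54 replicate 2, 3 without DEX replicate 3, and 4 without no-drug replicate 3, DEX replicate 2, SH4-54 replicate 3 or combination replicate 1. The share of all genes called lower moved with it, to 8.45% without combination replicate 3 and to between 0.473% and 0.668% in the others. The members added without combination replicate 3 were IFI44L, IFI16, IFIT2, IFITM2, UBE2L6, MX2, PARP14, DDX60 and IRF1. IFI44 passed in only 1 of the 12 fits with a library left out, PARP9 in 3 and IFITM3 in 5. IFIT3 alone passed in every one of the 12 fits. DDX60 had -0.53 ± 0.14 and did not pass (adjusted p = 0.0527, or 0.000144 without combination replicate 3).

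The SH4-54 difference without DEX and the one with DEX share no libraries, and both were below 0 for 31 of 44 members (70.5%, against 31.3% of all genes). The fall was larger with DEX for 34 of 44 members (77.3%, all genes 48.7%). Across the 44 members Spearman's rho between the differences was 0.493 and Pearson's r 0.0434, with IFITM1 far from the rest. Over all genes they were 0.306 and 0.416. Members are not independent replicates, so these values describe the list.

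**Figure D5:**
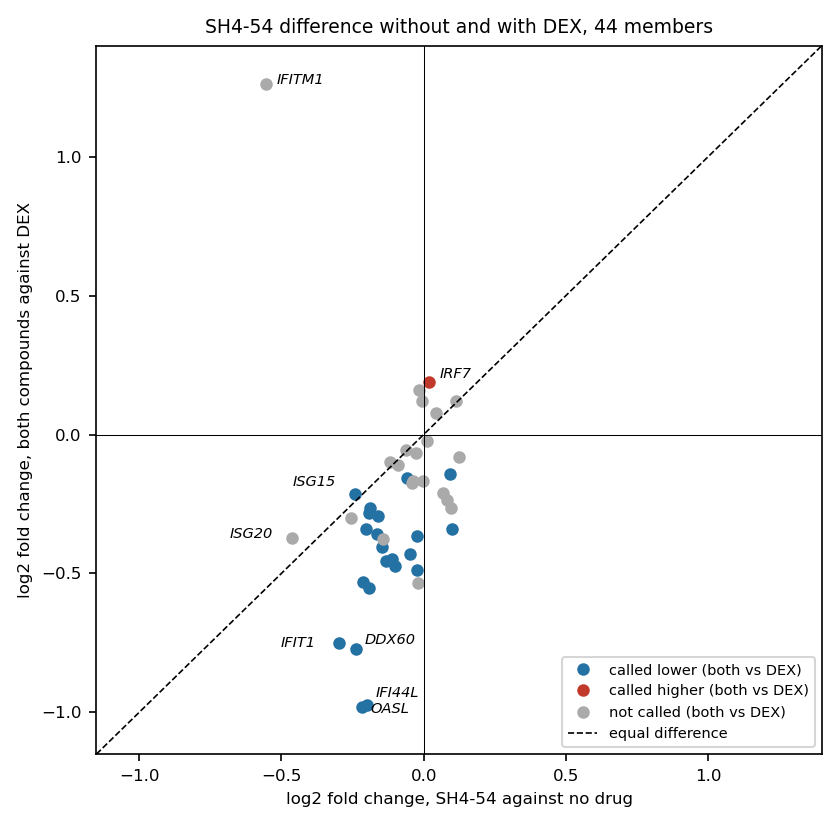
Log2 fold change with SH4-54 against no drug (x axis) and with both compounds against DEX (y axis) for the 44 tested members, coloured by the call in the latter comparison, with a dashed line where the differences are equal. Most points lie in the lower left and below the dashed line, with OASL, IFI44L, DDX60 and IFIT1 lowest. IFITM1 lies far from the rest, toward the upper left.

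By their calls in the comparisons of groups the members fell into many patterns, of which the largest are given here. The share of all genes in each pattern was not counted. With SH4-54 alone few of all genes were called (0.331% lower and 0.268% higher), so the lack of a call there is common to most genes. HERC5, IFIT1, IFIT2, IFIT3, OAS1, OAS2, DDX60 and PARP14 (8 members) were called with neither compound alone and were lower with both than in each of the other 3 groups, PARP14 with the doubt given above. OAS2 was called lower with DEX without no-drug replicate 3 (adjusted p = 0.0208) or DEX replicate 3 (adjusted p = 0.0352), and IFIT1 and IFIT3 were called lower with SH4-54 by DESeq2 (adjusted p = 0.000724 and 0.00688). USP18, ISG20, SAMD9 and SAMD9L (4 members) were lower in the comparisons that add DEX and were not called when SH4-54 was added to DEX. UBE2L6, IFI44, MX2 and PARP9 (4 members) rose with DEX and were lower again with both. HERC6, IFIT5, MX1 and IFIH1 (4 members) were lower with both against no drug and against DEX, and were called in no other comparison. The calls of MX1 and IFIH1 carry the doubts given above. That of HERC6 against no drug was lost without no-drug replicate 1 or combination replicate 1 (adjusted p up to 0.0599). Of the calls in these patterns, that of OAS1 against SH4-54 was lost without SH4-54 replicate 3 (adjusted p = 0.0561), and that of USP18 against no drug in 5 of 12 fits with a library left out (adjusted p up to 0.130) and against SH4-54 without SH4-54 replicate 2 or 3 or combination replicate 3 (adjusted p up to 0.0921). IFI6, IFI27, IFITM1, RSAD2, SP100, IRF9, HLA-B and B2M (8 members) were called in none. Of 21 tested members with an ISRE core in the promoter window, 12 fell with both against DEX (median -0.28). Of the 15 with a promoter but no match 5 fell (median -0.21), where 13.5% of all genes fell. The difference between these sets was not tested.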

How the data were processed

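RNA was measured in 12 libraries (3 wells in each of 4 groups), grouped by sample title; the treatment tag of the SH4-54 wells spells the compound differently, and the titles and design text were followed. Per the labels' protocols, libraries were made with a stranded, ribosome-depleted total RNA kit and read as single ends of 50 bases. The authors deposited 1 table of raw read counts per gene. Per the submitters' processing notes, the tools were HISAT2 2.1.0, SAMtools and featureCounts 1.5.1, on hg19 (GRCh37). Strand setting, annotation and treatment of reads matching several genes: not given in the sources used here.

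Genes were filtered with filterByExpr by group (14184 kept), scaled by TMM and tested with edgeR 4.0.16 (R 4.3.3) in 1 quasi-likelihood model of 4 groups with 8 residual degrees of freedom. P-values were adjusted by Benjamini-Hochberg over all genes tested, with 0.05 as the threshold. Totals of 25577213 to 35758236 counts set the counting precision. The script was tested on simulated data. Promoter sequences came from RefSeq (GRCh38.p14).

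The members and all gene lists were chosen with earlier results of these data known. Members were named by rule as the 8 with the largest change per comparison among those called, without overlap between the groups and at a mean of at least 1 CPM, with the 3 of smallest p from each upstream list, and others were named after their values were seen. Alternatives were a replicate block, each library left out, the compared groups alone, a stricter or no filter on counts, the 10 most abundant genes removed, DESeq2 1.42.0 (its size factors in edgeR, and its Wald test) and a longer motif.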

Additional observations from a re-analysis of the deposited data

Results flagged for a closer look

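In 7 members the effect of DEX differed between wells with and without SH4-54 by a test of the difference itself (edgeR's interaction term, adjusted over all genes). The interaction was -0.76 in OASL (adjusted p = 0.0153), -0.46 in PARP9 (adjusted p = 0.0434), -0.45 in IFIT1 (adjusted p = 0.0196), -0.37 in HERC5 (adjusted p = 0.017), -0.36 in IFIT3 (adjusted p = 0.0101), -0.34 in IFITM3 (adjusted p = 0.0229) and -0.32 in IFI44 (adjusted p = 0.0478). The calls of IFI44, PARP9 and IFITM3 were lost in 11, 9 and 7 of the 12 fits with a library left out (adjusted p up to 0.125, 0.113 and 0.0656), and that of IFIT3 in 0 of them. With the replicate block IFI44 and PARP9 also missed the threshold (adjusted p = 0.0717 and 0.0532). HERC5, IFIT1 and IFIT3 were not called with DEX alone, and OASL, PARP9, IFITM3 and IFI44 were called higher with it.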

How the results depend on the processing

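No member's log2 fold change reversed while past the threshold under any alternative run. With SH4-54 alone 1 member was called lower, but 4 by DESeq2 or with no count filter, and 3 when the compared groups were fitted alone. The share of all genes called lower was 0.331%, then 0.768%, 0.429% and 0.607%. The count called higher with both against no drug went from 1 to 2 with the stricter filter. That with both against DEX went from 1 to 0 by DESeq2, with no count filter, with the compared groups alone and with the replicate block, and that with both against SH4-54 from 2 to 1 with the compared groups alone. The share of all genes called higher went from 21.1% to 24.2%, from 13% to between 8.37% and 12%, and from 20.1% to 16.6%. The causes were not tested. Leaving out 1 library gave 8 to 10 higher and 5 to 7 lower with DEX, 0 higher and 0 to 4 lower with SH4-54, 1 to 3 higher and 18 to 24 lower with both against no drug, 0 to 1 higher and 17 to 31 lower against DEX, 1 to 3 higher and 13 to 17 lower against SH4-54, and 0 higher and 2 to 16 lower for the interaction. The shares of all genes called higher and lower moved too. They were 18.5% to 24.1% and 19.9% to 23.6% with DEX, and 0.125% to 0.508% and 0.0557% to 0.627% with SH4-54. With both against no drug they were 17.3% to 21.4% and 18.4% to 21.9%, and against DEX 7.44% to 14.1% and 7.99% to 18.2%. Against SH4-54 they were 16.7% to 19.6% and 17% to 21.2%, and for the interaction 0.939% to 5.8% and 0.473% to 8.45%. The share of member promoters with a match was 60.5% for the ISRE core and 31.6% for the longer form. The interaction was not fitted with groups alone, since it needs all 4.

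Replicate numbers did not pair the wells: deviations of same-numbered wells correlated at -0.097 to 0.093 (18 pairs). With the replicate block 20 members fell with both against no drug, 22 against DEX and 15 against SH4-54, and 5 passed for the interaction. The shares of all genes called lower there were 20.7%, 12.6%, 19.5% and 1.02%.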
